A study of Rattus norvegicus and Ovis aries with 113 samples.

Results

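The 8 genes described here are 3 secreted growth factors of the nervous system (BDNF, NTF3 and GDNF), the tyrosine kinase receptors NTRK2 and NTRK3, the neurotrophin receptor NGFR, the sorting receptor SORT1 and the GDNF coreceptor GFRA1. They were taken by name, as upper-cased symbols, from the gene count tables of both species, and all 8 were found among 31304 sheep genes and among 38675 rat genes. The series holds 113 bulk RNA-seq libraries from animals given no stated treatment. In sheep, 5 post-pubertal males gave 11 libraries each: sperm and 10 brain regions of 1 hemisphere, namely the frontal, prefrontal, motor, posterior parietal, visual and entorhinal cortex, the hippocampus, the basal ganglia, the cerebellum and the pons. From Sprague Dawley rats there were 15 whole brains and 15 sperm samples (seminal fluid) of post-pubertal males, and 14 whole brains and 14 ovaries of females; no label says whether samples of the same number share an animal. The study's title asks which genes link neurological and reproductive functions in mammals, and brain is therefore set beside reproductive samples of the same species. Levels are CPM, counts scaled to the total of their library. They are compared between samples and never between genes, since they are not corrected for transcript length. In bulk samples, fewer cells of a type and less RNA per cell cannot be told apart.

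Neurotrophins are made as precursors, cleaved by proprotein convertases, and bind Trk receptor kinases with high affinity: BDNF acts through NTRK2 (TrkB) and NTF3 (neurotrophin 3) mainly through NTRK3 (TrkC). NGFR (p75NTR) binds all neurotrophins and, together with SORT1 (sortilin), their uncleaved precursors. SORT1 also routes BDNF and lysosomal proteins inside the cell. GDNF belongs to another family and signals through GFRA1 with the kinase RET or the adhesion molecule NCAM1. In the gonads, GDNF from Sertoli cells maintains GFRA1-bearing spermatogonial stem cells, and neurotrophins and their receptors are known from ovarian follicles.

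In rats, Sort1 and Gdnf were the members called higher in a reproductive sample than in brain (sperm and ovary, in that order), so the bases upstream of their start sites are shown. The sequences are from RefSeq (build GRCr8), 5′ to 3′ on the gene's strand, and 5 of the 8 members had a window there. Capitals mark matches to the 4 motifs named after the sequences, which were searched on both strands. The Sort1 stretch is chr2:198612245-198612494 on the plus strand, and its start site at 198612495 lies inside the annotated gene (198609466 to 198690481).
Sort1: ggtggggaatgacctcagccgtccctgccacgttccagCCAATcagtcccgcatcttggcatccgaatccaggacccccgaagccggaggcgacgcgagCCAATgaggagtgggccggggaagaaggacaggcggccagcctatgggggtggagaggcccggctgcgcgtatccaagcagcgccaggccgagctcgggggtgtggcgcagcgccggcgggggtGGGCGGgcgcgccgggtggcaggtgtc
The Gdnf stretch is chr2:58621077-58621326 on the plus strand, directly before the annotated gene (58621327 to 58647242).
Gdnf: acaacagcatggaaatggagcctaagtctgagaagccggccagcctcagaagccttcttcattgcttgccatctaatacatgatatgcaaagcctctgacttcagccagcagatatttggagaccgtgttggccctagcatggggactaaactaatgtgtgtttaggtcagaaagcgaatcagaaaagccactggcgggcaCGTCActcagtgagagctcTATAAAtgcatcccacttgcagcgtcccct
Positions count from the start site to the first base of a motif. In the Sort1 stretch the motif CCAAT stood at -212 and -151, and 37.5% of 33469 rat windows from 250 bases before to 50 bases after a start held it on either strand. The same stretch held GGGCGG at -27, a motif of 33.1% of windows. In the Gdnf stretch TATAAA stood at -30, as somewhere in 14.2% of windows. That stretch also held CGTCA at -49, present in 21.2% of windows. The Sort1 window had 72.3% GC and 33 CpG sites, a number that 7.53% of windows reached, against a median of 7 CpG sites. These matches are a description of the letters and were not tied to any measurement here.

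Library totals, in units of 1e6 counts, were 46.7 to 72.4 in sheep brain, 13.7 to 65.1 in sheep sperm, 38.2 to 119 in rat brain, 50.5 to 60.3 in rat ovary and 13.7 to 65.1 in rat sperm. Ribosomal RNA entries took 22.4% to 85.2% of the counts of sheep sperm libraries, and 86.9% and 83.1% in brain libraries 1 (a female) and 4 (a male) of the rats, so CPM of all members are low in these 2. The labels of sperm were checked against 8 markers of late spermatids and sperm, whose summed level was 58.0 to 1504 CPM in sheep sperm and 204 to 21804 CPM in rat sperm, against at most 35.9 and 8.84 CPM in brain. Sheep sperm also carried 4 neutrophil markers at 1580 to 39922 CPM in sum and 5 squamous and basal epithelium markers at 950 to 37418 CPM. Rat sperm libraries 16 and 17 held 441 and 436 genes with 1 to 9 counts, against 1394 to 8389 in the other rat sperm libraries, and both listed 0 counts for every member but Sort1.

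All 8 genes differed among the 10 sheep brain regions (edgeR quasi-likelihood F test, Benjamini-Hochberg adjusted p from 1.72e-12 for NTF3 to 8.49e-04 for GDNF), as did 76.7% of the 21147 genes tested. The cerebellum stood farthest from the rest. Against the mean of the other 9 regions, 7 of the 8 members were called there, at an adjusted p below 0.05 and a fold of at least 2: BDNF, NTF3, GDNF and NGFR were higher, and NTRK2, SORT1 and GFRA1 were lower. For all genes tested, 28.8% were called in the cerebellum, 9.34% higher and 19.5% lower. The pons had 3 members called (all genes: 18.7%), the basal ganglia 2 (10.3%) and the hippocampus 1 (4.62%). Over the 10 contrasts, 13 of 80 pairs of member and region were called (all genes: 7.62% of pairs), and none was in the 5 neocortical areas or the entorhinal cortex, where 2.31% of pairs over all genes were called. The regions come from the same 5 sheep, and with the animal as a replicate block the 13 calls remained and 3 were added, all in these areas (all genes: 2.41% of pairs): BDNF in the frontal (log2 fold change 1.09, edgeR, adjusted p = 0.0401) and motor cortex (1.12, 0.0487) and GDNF in the posterior parietal cortex (-1.01, 0.0163). The mean of the other regions is taken over log2 levels, so the near absence of BDNF from the basal ganglia raises its values in the other regions. Mean BDNF was 16.9 CPM in the frontal and 19.4 CPM in the motor cortex, against 16.8 CPM over all 50 brain libraries.

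**Figure D1:**
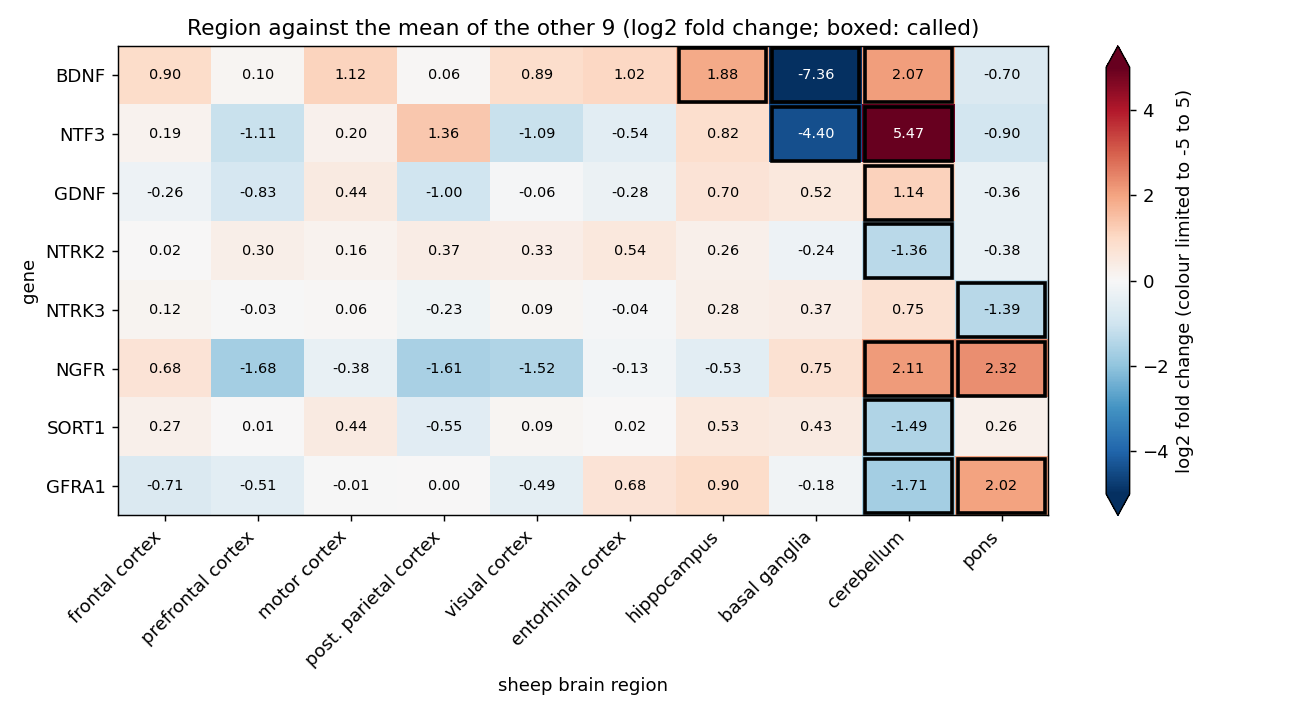
Fold change of each member in each sheep brain region against the mean of the other 9 regions, on the log2 scale from edgeR, with region on the x axis and gene on the y axis. The 13 boxed cells are called, 7 of them in the cerebellum, and the lowest value is -7.36 for BDNF in the basal ganglia.

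BDNF, the most widely studied neurotrophin and a factor that neurons release with activity, was highest in the cerebellum and the hippocampus and nearly absent from the basal ganglia. In sheep 687, 688, 690, 694 and 699 its level was 33.4, 40.8, 38.9, 31.3 and 51.4 CPM in the cerebellum and 48.8, 35.5, 23.8, 53.2 and 3.28 CPM in the hippocampus. In the basal ganglia it was 0.113, 0.170, 0.0590, 0.0180 and 0.0379 CPM. Every basal ganglia library lay below every library of the other 9 regions, where the lowest was 1.22 CPM in the pons, and 0.513% of genes with any count in brain were likewise lowest in the basal ganglia. The change against the other regions was -7.36 ± 0.74 (log2 fold change ± SE, adjusted p = 5.81e-11, edgeR) in the basal ganglia, 2.07 ± 0.33 (7.57e-07) in the cerebellum and 1.88 ± 0.34 (1.22e-04) in the hippocampus. The last 2 values are raised by the low basal ganglia, since the mean of the other regions is of log2 levels. Mean levels were 39.2 CPM in the cerebellum and 32.9 CPM in the hippocampus, against 16.8 CPM over all 50 brain libraries. The medians of the 6 cortical areas ran from 19.1 CPM in the frontal to 5.90 CPM in the prefrontal cortex, each overlapping its neighbour in the order. The hippocampus of sheep 699 stood below its other 4 libraries. Markers of excitatory cortical neurons moved with BDNF: the summed level of 3 markers (SLC17A7, TBR1 and NEUROD6) was 1.94 to 31.9 CPM in the basal ganglia, 4.70 to 99.2 CPM in the pons and 182 to 1039 CPM in the other 8 regions, and within the hippocampus it was 195 CPM in sheep 699 and 559 to 928 CPM in the others. Their part in the BDNF difference was not tested.

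**Figure D2:**
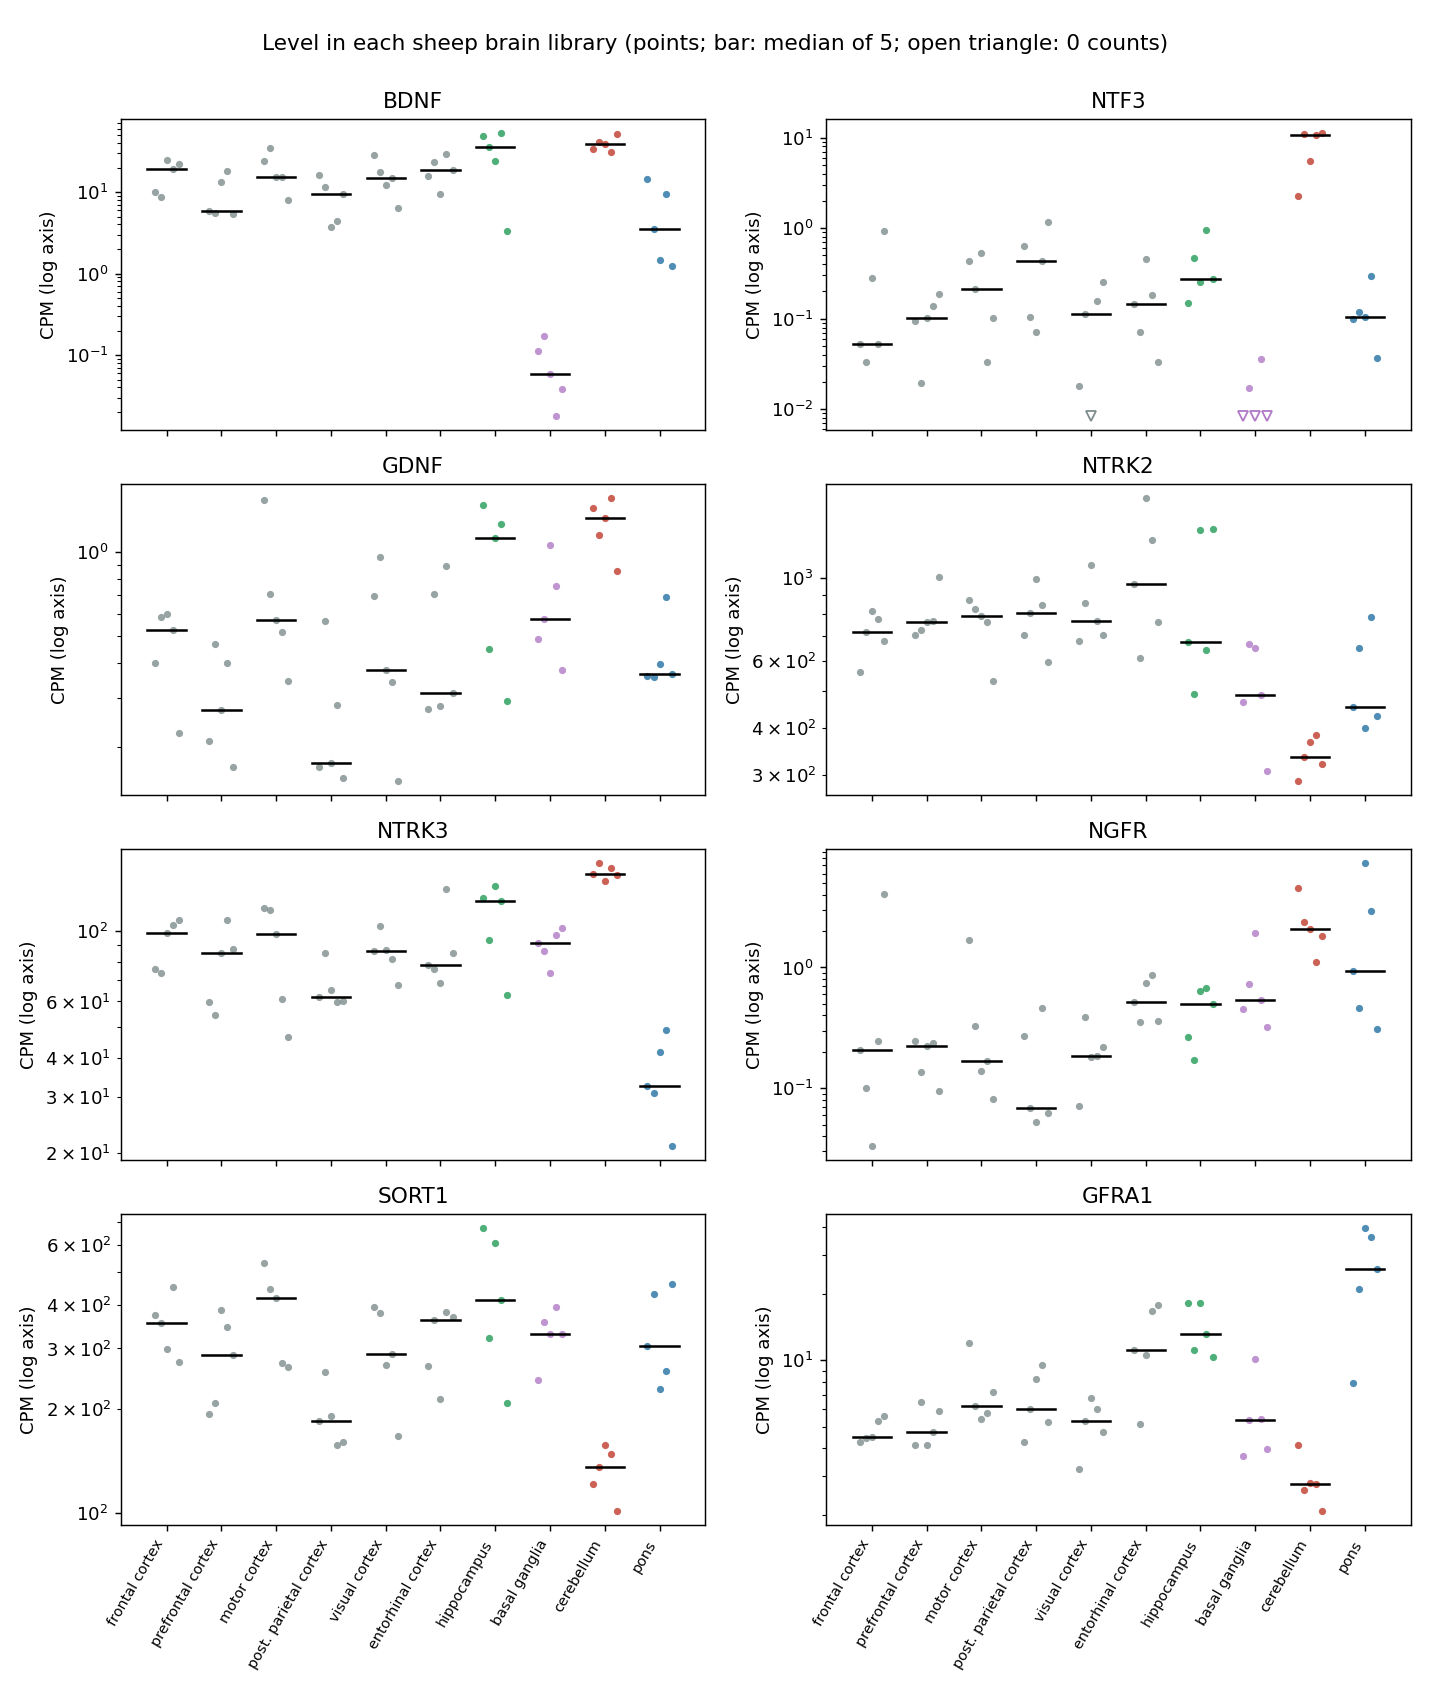
Level of each member in the 50 sheep brain libraries, as CPM on a log axis, by region on the x axis; points are libraries, bars are medians of 5, and open triangles are libraries with 0 counts. BDNF in the basal ganglia (0.0180 to 0.170 CPM) sits below all other points, and NTF3 in the cerebellum (2.27 to 11.3 CPM) above all others.

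NTF3, the ligand of NTRK3, was measured above 2 CPM only in the cerebellum. Its level there was 2.27, 10.9, 5.49, 10.8 and 11.3 CPM in sheep 687, 688, 690, 694 and 699, and its highest value in any other region was 1.15 CPM, in the posterior parietal cortex. All 5 cerebellar libraries thus lay above all 45 others, as did 7.79% of genes with any count in brain. The log2 fold change was 5.47 ± 0.39 (edgeR, adjusted p = 2.94e-16). In the basal ganglia 3 of 5 libraries had 0 counts and the others 0.0170 and 0.0360 CPM (-4.40 ± 1.01, edgeR, adjusted p = 7.25e-04). The summed level of 5 markers of cerebellar granule and Purkinje cells was 2009 to 2363 CPM in the cerebellum and at most 134 CPM in the other regions, and their part in the NTF3 difference was not tested.

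GDNF, a survival factor of dopamine and motor neurons, was low throughout, with medians between 0.176 CPM in the posterior parietal cortex and 1.33 CPM in the cerebellum. The cerebellar values were 1.44, 1.15, 1.33, 1.56 and 0.856 CPM, those of the hippocampus 1.48, 0.450, 1.12, 1.26 and 0.294 CPM, and every region overlapped the next in the order. In the cerebellum the log2 fold change was 1.14 ± 0.28 (edgeR, adjusted p = 4.90e-04).

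The 2 Trk receptors ran in opposite directions in the cerebellum. NTRK2, which astrocytes express as well as neurons, had its lowest median there, with 289, 335, 366, 383 and 321 CPM in sheep 687, 688, 690, 694 and 699, and its highest median, 963 CPM, in the entorhinal cortex (611 to 1624 CPM). Outside the cerebellum, the basal ganglia of sheep 699 overlapped these values with 307 CPM. Its cerebellar log2 fold change was -1.36 ± 0.18 (edgeR, adjusted p = 1.52e-08). NTRK3 had its highest values in the cerebellum, at 151, 163, 143, 158 and 150 CPM, all above the highest library of any other region (138 CPM in the hippocampus). After TMM scaling, the scaling of the fits, the lowest cerebellar library was at 109 CPM. The highest of the basal ganglia was then at 110 CPM, so these regions overlapped. The cerebellar change of NTRK3, 0.75 ± 0.13 on the log2 scale (edgeR, adjusted p = 4.93e-06), was short of the 2-fold threshold. The pons held the lowest NTRK3 values, 32.6, 31.0, 41.6, 48.9 and 21.1 CPM (-1.39 ± 0.16, edgeR, adjusted p = 1.81e-09); of the other regions, the motor cortex of sheep 699 overlapped them with 46.5 CPM. The 5 oligodendrocyte markers summed to 20942 to 91850 CPM in the pons and to at most 28290 CPM in the other regions. Their part in the NTRK3 difference was not tested.

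NGFR, which in the adult brain is known best from cholinergic neurons of the basal forebrain, was low and uneven. In sheep 687, 688, 690, 694 and 699 it reached 4.58, 2.40, 2.07, 1.10 and 1.82 CPM in the cerebellum and 0.943, 0.460, 7.33, 2.95 and 0.310 CPM in the pons, while medians elsewhere were at most 0.540 CPM. The log2 fold change was 2.11 ± 0.49 (edgeR, adjusted p = 2.91e-04) in the cerebellum and 2.32 ± 0.49 (1.02e-04) in the pons. The call in the pons rested on sheep 690: without that animal the change was 1.18 with an adjusted p of 0.0846. The coefficient of variation within regions was 36.0% to 188% for NGFR (median 68.9%) and 49.8% to 151% for NTF3 (median 87.2%), against 4.98% to 37.0% for NTRK3.

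SORT1 was lowest in the cerebellum, at 122, 136, 157, 148 and 101 CPM in sheep 687, 688, 690, 694 and 699. All 5 values lay below those of the other regions, the nearest being 158 CPM in the posterior parietal cortex, and 2.29% of genes with any count were lowest in the cerebellum in the same way. The change was -1.49 ± 0.20 on the log2 scale (edgeR, adjusted p = 2.97e-08). The highest medians were those of the motor cortex (419 CPM) and hippocampus (415 CPM), whose ranges overlapped.

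GFRA1, the receptor to which GDNF binds, was highest in the pons, with 7.93, 20.9, 39.6, 36.3 and 25.8 CPM in sheep 687, 688, 690, 694 and 699. The hippocampus followed with 10.3 to 18.1 CPM and the entorhinal cortex with 5.15 to 17.8 CPM, and the cerebellum was lowest with 2.09 to 4.14 CPM. The lowest pons library, of sheep 687, lay below the range of the hippocampus and within that of the entorhinal cortex. The log2 fold change was 2.02 ± 0.18 in the pons (edgeR, adjusted p = 3.04e-12), -1.71 ± 0.26 in the cerebellum (2.48e-07) and 0.90 ± 0.20 in the hippocampus (0.00212, short of the 2-fold threshold). The cerebellum thus held the highest median of GDNF and the lowest of GFRA1.

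Across the 50 sheep brain libraries, the genes whose log2(CPM + 1) was most like that of BDNF, among 11159 genes, were NEUROD2, OLFML2B and CADPS (Pearson r from 0.91 to 0.92). For NTF3 they were EOMES, SHISA8 and UNC45B (0.92 to 0.94), for NTRK2 SCARA3, GPT2 and SLC15A2 (0.91 to 0.94) and for NTRK3 CNR1, FRRS1L and TBC1D24 (0.92 to 0.94). For SORT1 they were QPCTL, MAST3 and SLC9B2 (0.84 to 0.88), for GFRA1 NEK7, EEF2K and STX2 (0.86 to 0.88), for GDNF RAB2A, IGF2R and FLRT3 (0.82 to 0.84) and for NGFR NTN1, OXCT1 and TMEM255A (0.72 to 0.73). The libraries share 5 animals and 10 regions, so these values describe shared region patterns. Between ligand and receptor, r was 0.06 for BDNF with NTRK2 and -0.03 for GDNF with GFRA1. It was 0.50 for NTF3 with NTRK3, which both had all 5 cerebellar libraries above all 45 others in plain CPM.

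Of 57 further genes of the pathways in 5 lists (other ligands, other receptors and coreceptors, signal adaptors, processing of precursors, and activity-regulated genes that BDNF induces in neurons), 54 were tested in sheep brain. The pons had 26 called (48.1%, 9 higher and 17 lower), against 18.7% of all genes. The cerebellum had 19 called (35.2%, 6 higher and 13 lower), near the 28.8% of all genes and with a split to the lower side like theirs. The basal ganglia had 13 called (24.1%, 8 higher and 5 lower), against 10.3% of all genes, and the other 7 regions 1 to 9 each. In the pons 9 of the 10 activity-regulated genes were called, 8 lower and 1 higher, where 9.02% of all genes were lower and 9.65% higher; their median log2 fold change was -1.77, against 0.03 over all genes. Cell markers moved with them: 5 neuron markers summed to 526 to 4354 CPM in the pons and 1316 to 5010 CPM in the other regions, and 2 inhibitory neuron markers to 0.743 to 98.6 CPM against 66.9 to 448 CPM, while oligodendrocyte markers were high there, as given for NTRK3. The part of these cells in the lower values was not tested. Among the ligands, the GDNF relative NRTN was higher in the cerebellum (9.28 ± 1.96 CPM, SD, n = 5, against 1.20 ± 0.689, n = 45; log2 fold change 2.82, edgeR, adjusted p = 5.91e-14). PCSK1, a convertase of neuroendocrine secretory granules, fell by 3.98 on the log2 scale in the basal ganglia (edgeR, adjusted p = 5.35e-07), and its relative PCSK6 rose by 2.85 in the pons (1.49e-11). The immediate early gene ARC was lowest in the cerebellum (0.355 ± 0.191 CPM, SD, n = 5, against 19.7 ± 12.5, n = 45; -5.70, edgeR, adjusted p = 5.22e-11), and SHC3, an adaptor of Trk receptors in neurons, fell there by 2.49 (8.03e-11).

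In sheep sperm, 7 of the 8 members were called lower than in the mean of the 10 regions, and none was called higher. For all 21859 genes tested, 74.2% were called, 41.1% lower and 33.1% higher. The median log2 fold change of the members was -3.29, and -0.42 over all genes. The ligands were at or near 0: BDNF was measured at 0, 0.0610, 0.949, 0.271 and 0 CPM in sheep 687, 688, 690, 694 and 699, and GDNF at 0, 0.0407, 0.146, 0 and 0 CPM. NTF3 had no count in any of the 5 sperm libraries, against 1.01 CPM over the pooled brain libraries and 0.223 CPM over those outside the cerebellum. With a floor of 3 counts over the group, it was at least 11.6-fold lower in sperm than in brain after TMM scaling, the scaling of the fitted changes, and at least 2.62-fold lower than in brain outside the cerebellum. In plain CPM (floor 0.0146 CPM) the bounds were 68.7-fold and 15.3-fold. With NTF3 at its TMM bound the members' median stayed at -3.29, and it was -2.63 with the bound outside the cerebellum. BDNF changed by -3.50 ± 0.71 (log2 fold change ± SE, edgeR, adjusted p = 1.38e-05) and GDNF by -2.14 ± 0.65 (0.00262). The mean of the regions is taken over log2 levels, so the near absence of BDNF from the basal ganglia makes the BDNF fall smaller. GDNF and BDNF sperm values came largely from sheep 690, and without it BDNF changed by -4.84 and GDNF by -3.14.

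The receptors were also lower. NTRK2 was measured at 0.522, 0.427, 1.53, 5.45 and 0.548 CPM in the sperm of the same 5 sheep, below every brain library (at least 289 CPM), with a log2 change of -6.43 ± 0.38 (edgeR, adjusted p = 1.86e-21). NTRK3 was measured at 0, 0.0203, 1.02, 2.20 and 0.232 CPM, against at least 21.1 CPM in brain (-4.85 ± 0.44, edgeR, adjusted p = 2.21e-14). SORT1, the only member that reached 1 CPM in at least 80% of sheep sperm libraries, was at 3.39, 11.3, 7.30, 2.20 and 6.20 CPM, against at least 101 CPM in brain (-3.08 ± 0.28, edgeR, adjusted p = 2.64e-14). GFRA1 was at 0.148 to 0.779 CPM, against at least 2.09 CPM in brain (-2.18 ± 0.31, edgeR, adjusted p = 1.35e-08). NGFR was counted only in the sperm of sheep 688, at 0.102 CPM, and its change of -2.08 ± 1.06 did not pass the test (edgeR, adjusted p = 0.0669).

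In plain CPM, 5 of the 8 members (GDNF, NTRK2, NTRK3, SORT1 and GFRA1) had all sperm libraries below all 50 brain libraries, as did 37.0% of genes with any count. After TMM scaling NTRK2, NTRK3 and SORT1 stayed apart, and GDNF and GFRA1 overlapped brain. GFRA1 was then at 0.786 to 2.55 CPM in sperm, against at least 1.57 CPM in brain. The size of each sheep sperm change depended on the scaling, since ribosomal entries took up to 85.2% of the counts: the median over all genes was -0.42 with TMM factors, -2.84 with plain library totals and 0.31 with upper quartile factors. Under these scalings all 8 members stayed lower in sperm. Sperm and brain libraries come from the same 5 sheep. With the animal as a replicate block the same members were called lower, NTF3 at an adjusted p of 0.0292 (edgeR). NGFR was again not called (edgeR, adjusted p = 0.117). With limma voom and quality weights 3 members were called lower (NTRK2, NTRK3 and SORT1). Without sheep 688 or 694, or with upper quartile factors, the adjusted p of NTF3 was 0.0592, 0.0660 and 0.0595. Without sheep 688 NGFR had 0 counts in sperm and an adjusted p of 0.0146. The 5 astrocyte markers, high in brain with NTRK2, summed to at most 2.23 CPM in sheep sperm, and 5 neuron markers to 0.671 to 21.8 CPM. The part of these cells in the lower sperm values was not tested.

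Of 54 pathway genes tested in sheep sperm, 45 (83.3%) were called, 12 higher and 33 lower, near the 74.2% of all genes; their median log2 fold change was -1.68, against -0.42. Of 17 adaptors, 15 were lower and 1 was higher. PSPN and PLG had 0 counts in all 5 sperm libraries and were called lower. NCAM1, the alternative partner of GFRA1, was at 1.74 ± 2.45 CPM in sperm (SD, n = 5) and 388 ± 78.6 CPM in brain (n = 50), with a log2 change of -5.63 (edgeR, adjusted p = 2.97e-17). The precursor-processing enzyme CPE, a sorting receptor and carboxypeptidase of secretory granules, was at 0.386 ± 0.345 against 800 ± 228 CPM (-8.08, edgeR, adjusted p = 2.16e-22). FOS, an immediate early gene, was higher, at 160 ± 172 against 39.5 ± 28.9 CPM (4.36, edgeR, adjusted p = 3.31e-19). CDNF, GFRA2 and TRAF6 were called higher after TMM scaling but had lower mean plain CPM in sperm than in brain.

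In whole rat brain, 7 of the 8 members reached 1 CPM in at least 80% of libraries, and Gdnf did not. The lowest, median and highest of 15 male brains were 1.94, 19.9 and 26.3 CPM for Bdnf, 0.206, 2.33 and 3.59 CPM for Ntf3, and 0.0196, 0.796 and 1.28 CPM for Gdnf. They were 36.9, 450 and 564 CPM for Ntrk2, 9.13, 127 and 157 CPM for Ntrk3, and 0.285, 4.45 and 9.75 CPM for Ngfr. They were 30.7, 379 and 545 CPM for Sort1 and 1.52, 15.7 and 23.3 CPM for Gfra1. Each lowest value was that of library 4, and the next lowest for Bdnf was 14.4 CPM. No member was called between the sexes, where 0.0583% of 20570 genes were called. The 14 female brains had medians of 17.8 CPM for Bdnf, 2.49 for Ntf3, 0.707 for Gdnf, 409 for Ntrk2, 109 for Ntrk3, 4.09 for Ngfr, 359 for Sort1 and 15.3 for Gfra1, and all 8 ranges overlapped those of males. Log2 fold changes of female against male lay between -0.02 and 0.29, with adjusted p from 0.384 to 0.994 (edgeR). Unadjusted p was under 0.05 for 2 members, Ntf3 (0.0199) and Gfra1 (0.0359), and DESeq2 and limma voom called none either.

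**Figure D3:**
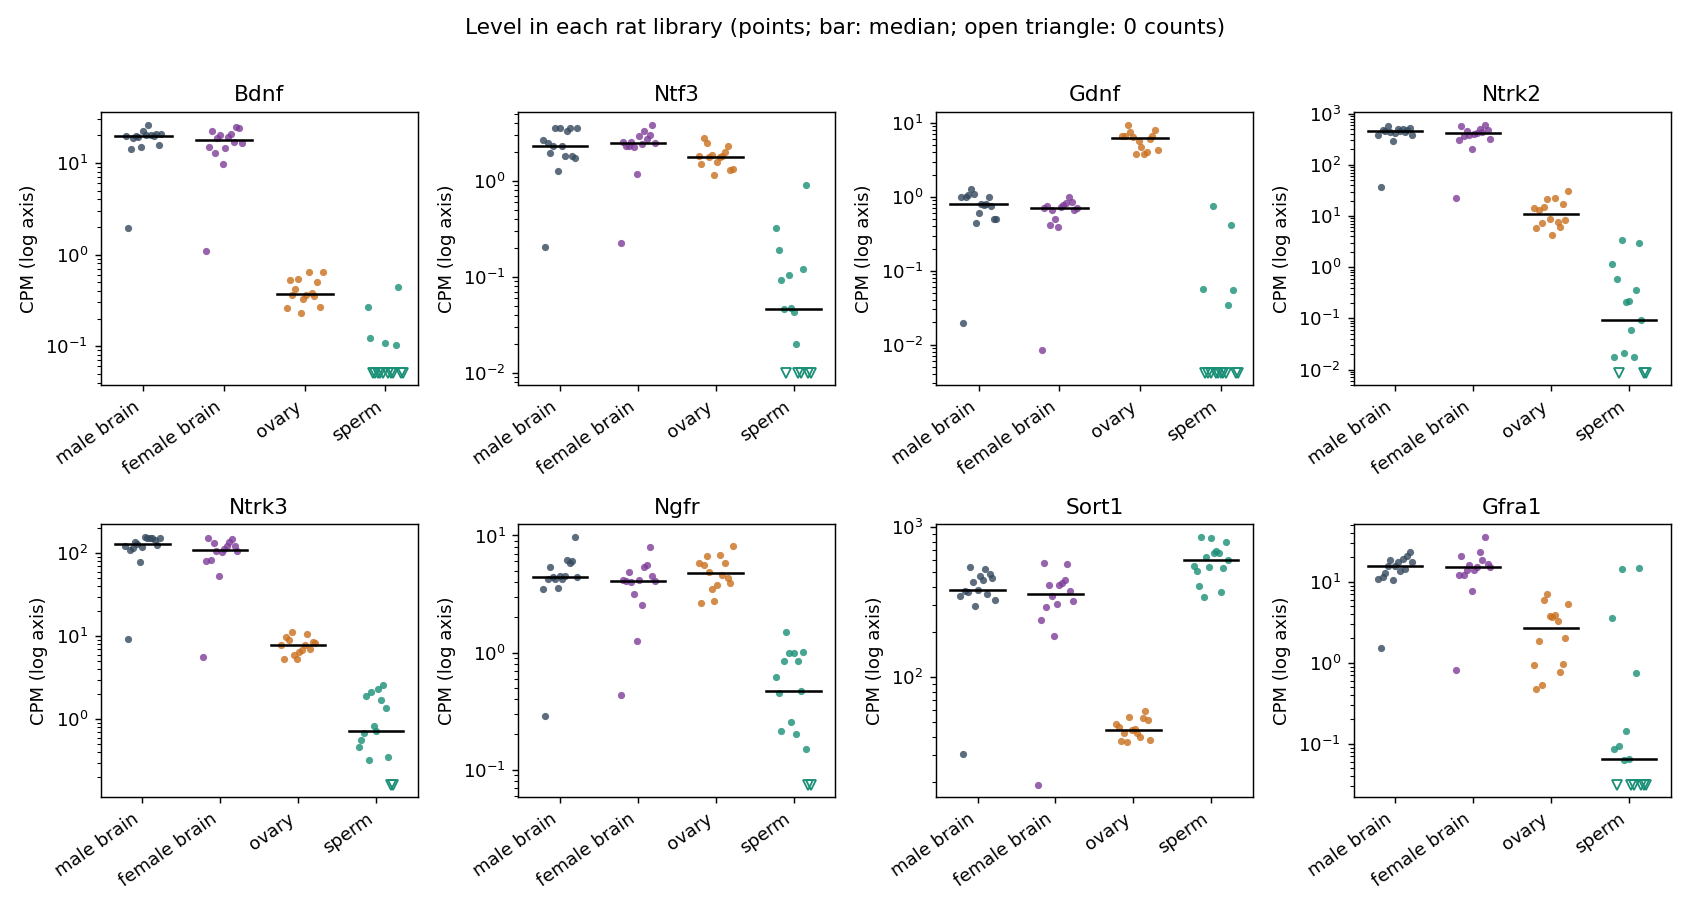
Level of each member in the rat libraries, as CPM on a log axis, for 15 male brains, 14 female brains, 14 ovaries and 15 sperm samples on the x axis; points are libraries, bars are medians, and open triangles are libraries with 0 counts. Ovary lies above brain for Gdnf (3.77 to 9.48 CPM), and the median of sperm is above that of male brain only for Sort1 (600 against 379 CPM).

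In rat sperm, all 8 members were called against male brain, 7 lower and Sort1 higher. For all 20480 genes tested, 59.1% were called, 31.5% lower and 27.6% higher. The median log2 fold change of the members was -3.26, against -0.03 over all genes. Sort1 was the only member at 1 CPM or more in at least 80% of sperm libraries, that is 1 of the 7 members detected in male brain, while 72.7% of all genes detected in male brain were also detected in sperm. The same held in sheep, where sperm detected 1 of 5 members and 42.0% of the genes found in brain.

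Sort1 reached 342, 600 and 862 CPM (lowest, median and highest of 15 sperm libraries), against a brain median of 379 CPM and a brain maximum of 545 CPM. The groups overlapped, and the ratio of medians was 1.58. The log2 fold change was 1.00 ± 0.14 (edgeR, adjusted p = 1.21e-07), at the 2-fold threshold itself, and 7 of 12 alternative settings, among them RLE factors (0.71), plain library totals (0.64) and DESeq2 (0.71), put it below that threshold, with 0.64 to 1.20 over all 12 and adjusted p of at most 0.0101. Libraries 16 and 17, with 0 counts for the other members, held 795 and 600 CPM.

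The ligands were near 0 in rat sperm. Bdnf had 0 counts in 10 of 15 libraries and at most 0.446 CPM, with a log2 change of -7.61 ± 0.68 (edgeR, adjusted p = 1.27e-11). Ntf3 had a median of 0.0467 CPM and a highest value of 0.911 CPM (-3.80 ± 0.59, edgeR, adjusted p = 9.53e-07). Gdnf had 0 counts in 10 libraries (-2.73 ± 0.69, edgeR, adjusted p = 7.44e-04). Of the receptors, Ntrk2 had a median of 0.0930 CPM and at most 3.46 CPM (-9.03 ± 0.78, edgeR, adjusted p = 5.01e-12), and Ntrk3 a median of 0.729 CPM and at most 2.58 CPM (-6.36 ± 0.47, 1.13e-13). Ngfr had a median of 0.470 CPM and at most 1.49 CPM (-2.64 ± 0.44, edgeR, adjusted p = 2.41e-06). Bdnf, Ntrk2 and Ntrk3 lay below all 15 brains in all sperm libraries (all genes: 5.39%). Without brain library 4, Ntf3 and Ngfr did too, making 5 members (all genes: 15.6%).

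Gfra1, the receptor that marks spermatogonial stem cells in the testis, was high in 3 libraries. Sperm libraries 3, 7 and 14 held 3.57, 14.2 and 14.7 CPM, within the range of brain, and the other 12 held 0 to 0.749 CPM, 6 of them with 0 counts. These 3 libraries carried 96.2% of all Gfra1 counts in sperm, 92.5% of Gdnf counts (62 of 67) and 80.9% of Ntrk2 counts, but 15.2% of Sort1 counts and 14.1% of Ntrk3 counts. Of 23 marker lists, 5 had summed levels in these 3 libraries above all of the other 12. They were 8 late spermatid and sperm markers (8059 to 21804 CPM, against 204 to 4483 CPM), 5 spermatogonium markers (121 to 291 against 40.6 to 104 CPM), 4 microglia markers (165 to 585 against 15.8 to 125 CPM), 5 oocyte markers (2.54 to 4.83 against 0 to 0.366 CPM) and the excitatory neuron markers (1.59 to 13.0 against 0 to 0.557 CPM over the 3 named above). Sort1 was not high in them (342 to 548 CPM, against 406 to 862 CPM). Over all 15 libraries the Gfra1 change was -2.44 ± 0.92 (edgeR, adjusted p = 0.0168), and without these 3 it was -6.64 (2.12e-11). Gdnf changed from -2.73 to -5.70 in the same way. For Ntrk2 the value was -10.87 without these 3 libraries, and DESeq2 gave -4.05 with them. The part of other cells in these values was not tested.

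**Figure D4:**
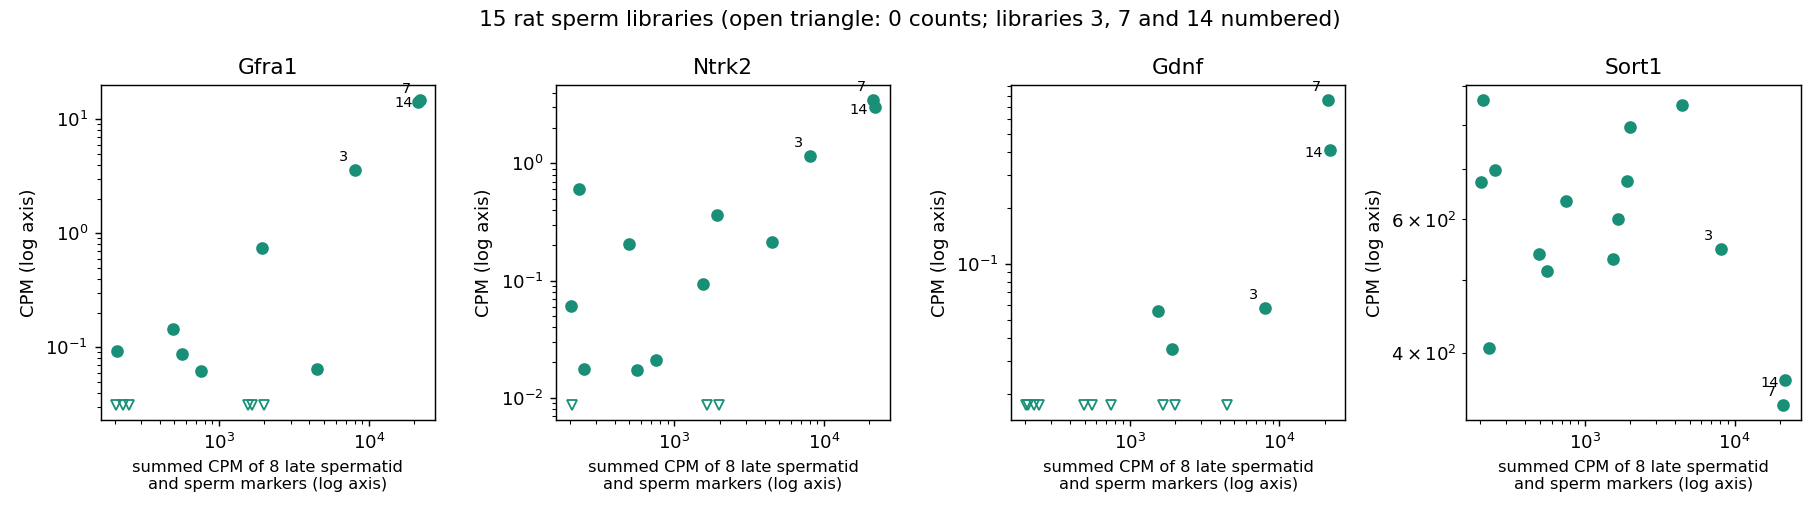
Level of Gfra1, Ntrk2, Gdnf and Sort1 (CPM, log axis) against the summed level of 8 late spermatid and sperm markers (CPM, log axis) in 15 rat sperm libraries; open triangles are libraries with 0 counts. Libraries 3, 7 and 14, at 8059 CPM of markers or more, hold the highest Gfra1 and Ntrk2 values, while Sort1 is at 342 to 548 CPM in them.

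Of 56 pathway genes tested in rat sperm, 42 (75.0%) were called, 10 higher and 32 lower, against 59.1% of all genes; their median log2 fold change was -1.52, against -0.03. Of 10 other receptors and coreceptors, 9 were lower, among them the sortilin relative Sorcs3 (0.0240 ± 0.0533 CPM, SD, n = 15, against 27.7 ± 8.69 CPM, n = 15; log2 fold change -9.52, edgeR, adjusted p = 7.22e-16) and Ncam1 (-7.76, 5.14e-15). The exception was Gfra3, the artemin receptor (1.47 ± 1.38 against 0.151 ± 0.111 CPM, SD, n = 15 each; 3.64, edgeR, adjusted p = 2.11e-06). Of 7 other ligands, 4 were higher and 2 lower: Nrtn was at 48.6 ± 23.4 CPM in sperm and 2.90 ± 0.947 CPM in brain (SD, n = 15 each; 4.42, edgeR, adjusted p = 2.68e-16), and Manf at 179 ± 51.0 against 37.7 ± 10.8 CPM (2.62, 5.09e-16). Furin, a convertase that cleaves neurotrophin precursors, was higher in sperm (156 ± 88.5 against 29.3 ± 8.83 CPM, SD, n = 15 each; 2.81, edgeR, adjusted p = 3.85e-11), and the neuroendocrine convertase Pcsk2 fell by 9.93 (3.55e-16). Of 10 activity-regulated genes, 7 were lower and only Egr2 higher (3.38, edgeR, adjusted p = 4.31e-12).

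In rat ovary, 6 members were called against female brain: Gdnf was higher, and Bdnf, Ntrk2, Ntrk3, Sort1 and Gfra1 were lower. For all 20801 genes tested, 56.9% were called, 27.7% higher and 29.2% lower. The median log2 fold change was -2.95 over the members and 0.02 over all genes. Ovary kept 5 of the 7 members detected in female brain, and 86.3% of all genes detected there. Gdnf, which oocytes and follicle cells are known to make, reached 3.77, 6.27 and 9.48 CPM (lowest, median and highest of 14), against 0.00839, 0.707 and 0.987 CPM in female brain. Every ovary lay above every brain, as for 17.7% of genes with any count, and the change was 2.97 ± 0.16 (log2 fold change ± SE, edgeR, adjusted p = 3.99e-17). Gdnf overlaps 1 other annotated gene, LOC134485851, and whether the counting used strand is not given in the sources used here. The same limit applies to Ntrk2, which overlaps 7 other annotated genes, and to Ntrk3 and Gfra1, which overlap 1 each.

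The other ligands differed from Gdnf. Bdnf was at 0.233, 0.372 and 0.648 CPM in ovary (lowest, median and highest), below every brain, where library 1 was lowest at 1.11 CPM (-5.62 ± 0.14, edgeR, adjusted p = 1.54e-25). Ntf3 was at 1.15, 1.79 and 2.81 CPM, overlapping brain, and its change of -0.72 ± 0.12 was short of the 2-fold threshold (edgeR, adjusted p = 2.01e-06). Ngfr was at 2.64, 4.75 and 8.10 CPM and its medians in ovary and brain differed by a factor of 1.16, with a log2 change of -0.01 ± 0.17 (edgeR, adjusted p = 0.966); its sign changed under 5 of 9 alternatives.

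The kinase receptors and sortilin fell. Ntrk2 was at 4.30, 10.8 and 31.2 CPM in ovary (-5.16 ± 0.27, edgeR, adjusted p = 1.36e-17), Ntrk3 at 5.36, 7.74 and 11.2 CPM (-3.999 ± 0.11, 1.42e-24) and Sort1 at 37.0, 44.4 and 59.1 CPM (-3.20 ± 0.10, 9.75e-23). Gfra1 was at 0.481, 2.68 and 7.14 CPM (-2.70 ± 0.33, edgeR, adjusted p = 8.68e-09). Without brain library 1, these 4 genes and Bdnf lay below every female brain (all genes: 13.0%), and with it only Bdnf did (all genes: 4.58%). All 6 calls held under each of the 9 alternatives. Compared with sperm, Sort1 was the one member with every ovary below every sperm library (all genes: 2.83%), at medians of 44.4 and 600 CPM. The 5 members Ntf3, Gdnf, Ntrk2, Ntrk3 and Ngfr had every ovary above every sperm library (all genes: 13.0%).

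**Figure D5:**
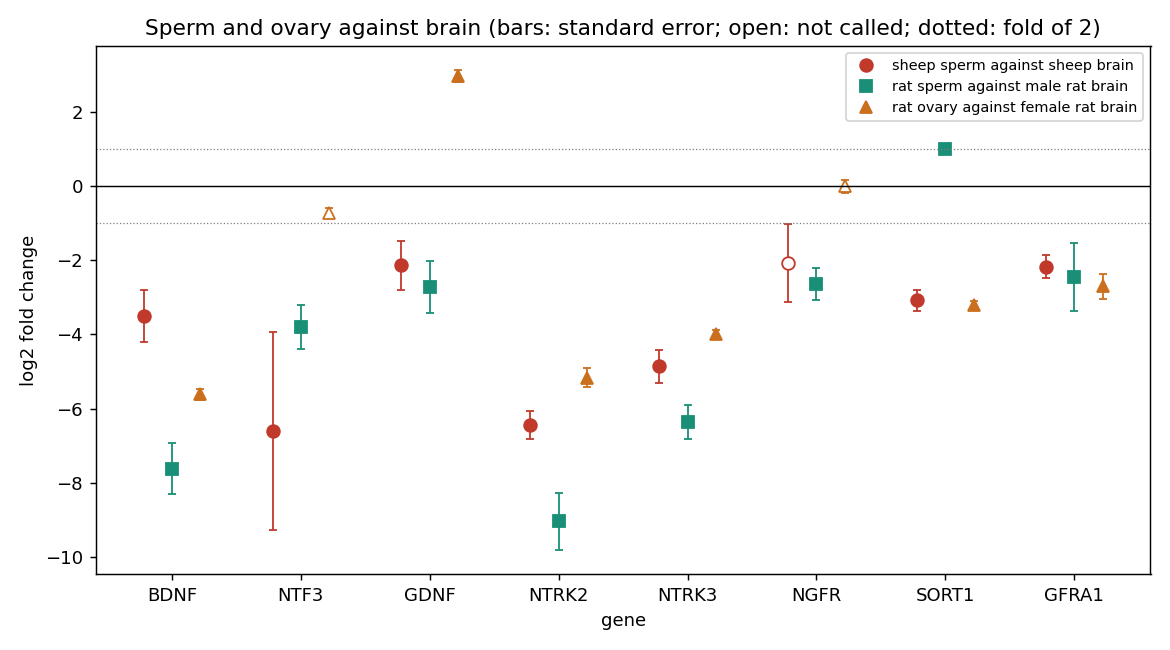
Log2 fold change from edgeR of each member for sheep sperm, rat sperm and rat ovary against brain of the same species, with gene on the x axis and standard errors as bars; open symbols are not called and dotted lines mark a fold of 2. Gdnf in ovary (2.97) and Sort1 in rat sperm (1.00) are the called values above 0.

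Of 56 pathway genes tested in ovary, 36 (64.3%) were called, 10 higher and 26 lower, near the 56.9% of all genes; their median log2 fold change was -0.83, against 0.02. The receptors were again mostly lower (8 of 10), among them Sorcs1 (0.693 ± 0.262 CPM, SD, n = 14, against 40.4 ± 15.8 CPM, n = 14; log2 fold change -6.13, edgeR, adjusted p = 2.44e-24), and Gfra3 was higher (2.58 ± 0.385 against 0.0855 ± 0.0622 CPM, n = 14 each; 4.61, 1.88e-17). Ntf4, the other ligand of Ntrk2, was higher in ovary, at 1.46 ± 0.354 against 0.184 ± 0.122 CPM (SD, n = 14 each; 2.68, edgeR, adjusted p = 8.43e-13). The adaptor Shc1 rose by 3.42 while its neuronal relative Shc3 fell by 7.48 (edgeR, adjusted p = 1.92e-25 and 1.14e-21). Vgf, a secretory granule gene that BDNF induces, fell by 8.06 (edgeR, adjusted p = 6.22e-17).

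The change from brain to sperm was compared between species in a single model of the 15172 genes tested under a common symbol, where each sheep entered with the sum of its 10 regions. Positive values mean a smaller fall or larger rise in sheep. For 3 members the term was called (all genes: 62.2%): SORT1 at -4.17 ± 0.34 (log2, edgeR, adjusted p = 1.76e-13), BDNF at 3.74 ± 1.21 (0.00702) and NTRK2 at 2.53 ± 1.09 (0.0406). In the separate comparisons SORT1 was called lower than brain in sheep sperm, with no overlap. It was called higher in rat sperm, where the groups overlapped and the log2 change of 1.00 lay at the 2-fold threshold. The SORT1 term ran from -4.63 to -3.19 over all 16 alternatives. The median over all genes was -0.69 and moved to 0.41 with DESeq2. BDNF lost its call under 2 of 16 alternatives, the replicate block (3.62, adjusted p = 0.0550) and without sheep 690 (2.06, 0.158). NTRK2 lost it under 5: plain library totals, DESeq2 (-1.72), and without sheep 687, 690 or 694 (2.68, 2.66 and 1.75). NTF3, GDNF, NTRK3, NGFR and GFRA1 did not pass (adjusted p from 0.105 to 0.982, edgeR), while GDNF (3.70, 0.00382) and GFRA1 (4.28, 7.01e-05) passed without rat sperm libraries 3, 7 and 14. Standard errors of these 5 ran from 0.85 for NTRK3 to 3.31 for NTF3 on the log2 scale. Their missing calls thus do not show that the species were alike. Species and library kit cannot be told apart in this term, since the sheep and rat libraries were made with different kits. The same holds for the content of the samples. Neutrophil and squamous markers, high in sheep sperm as given above, summed to at most 43.2 and 134 CPM in rat sperm. Ribosomal entries took 22.4% to 85.2% of counts in sheep sperm and 1.68% to 28.9% in rat sperm. Sheep brain was a sum of 10 regions and rat brain was whole.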

How the data were processed

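The deposited files hold raw counts per gene, made by the authors with Trimmomatic 0.39, STAR 2.7.5a and Rsubread 2.20.0 on GRCr8 (rat) and ARS-UI_Ramb_v3.0 (sheep), per the submitters' processing notes. The strand setting is not given in the sources used here. Sheep libraries were made with a Kapa kit and rat libraries with a Watchmaker kit, per the labels. CPM were computed from these counts and plain library totals, which ran from 13.7 to 119 in units of 1e6 counts. Tests used edgeR 4.0.16 in R 4.3.3 (TMM factors, filterByExpr, robust quasi-likelihood F test over all genes, prior count 0.125), with calls at a Benjamini-Hochberg adjusted p below 0.05 and a log2 fold change of at least 1. All 8 members passed the low-count filter in each comparison. Nothing states that rat libraries of a group came from separate litters, so p-values measure the spread between these samples.

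Alternatives were DESeq2 1.42.0, limma 3.58.1 (voom with quality weights), other scaling factors, no filter, a replicate block and left-out libraries; those leaving out rat brain libraries 1 and 4 and rat sperm libraries 3, 7 and 14 were added after the data were seen. Sheep numbers name animals: of 225 pairs of regions of the same sheep, 141 had deviations correlated above 0.1 (median 0.17), and of 50 pairs of sperm with a region, 5 did. The members, gene lists and marker lists were chosen with earlier results of these data known. Pathway genes were named from the called genes with the largest fold, at most 2 per list and direction in a comparison (those with 0 counts in a group without their fold), and likeness by the 3 highest correlations among genes with a mean of at least 5 CPM. The fits were tested on simulated data, where the species by tissue term recovered the smallest share of the changes put in. No 2 libraries of a group held identical counts (502 pairs compared). Some pathway and marker genes are not reported here by name, though counts over the lists include them.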

Additional observations from a re-analysis of the deposited data

Results flagged for a closer look

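In the sheep groups of 5, 15 of 88 sets of values had a highest or lowest library set apart from the others by more than 0.71 of the whole range. For 5 values from a normal distribution this happens in about 1 in 20 groups. CPM near 0 do not follow one, as for NGFR with 0 counts in 4 of 5 sperm libraries. That rate therefore cannot be set against the 15 found, and no explanation was tested. Of these, 5 were in sperm: BDNF at 0.949 CPM and GDNF at 0.146 CPM in sheep 690, NTRK2 at 5.45 CPM and GFRA1 at 0.779 CPM in sheep 694, and NGFR at 0.102 CPM in sheep 688. In the frontal cortex of sheep 699, NTF3 stood at 0.939 CPM and NGFR at 4.04 CPM. In the motor cortex of sheep 687, NGFR stood at 1.68 CPM and GFRA1 at 12.0 CPM, and in the basal ganglia of sheep 690 they stood at 1.95 and 10.1 CPM. The others were GDNF in the pons of sheep 694 (0.690 CPM), NTRK2 in the prefrontal cortex of sheep 699 (1005 CPM), and NTRK3 in the entorhinal cortex of sheep 694 (135 CPM) and the posterior parietal cortex of sheep 688 (84.9 CPM).

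By the interaction term of the edgeR fit, the difference between brain and sperm was called different between sheep and rat for SORT1 (-4.17 on the log2 scale), BDNF (3.74) and NTRK2 (2.53). Over all genes 62.2% were called in this term. The BDNF and NTRK2 calls were lost under some alternatives, and NTRK2 turned sign with DESeq2. Species, library kit and content of the samples cannot be told apart in this term.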

How the results depend on the processing

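The members called in sheep regions (13 pairs) numbered 12 to 19 under the alternatives, with 16 under the replicate block by animal, which kept all 13 and added 3. In sheep sperm, limma voom called 3 members in place of 7. In the species by tissue term, 3 members were called, against 5 with limma voom, 5 without rat sperm libraries 3, 7 and 14, and 1 to 4 when 1 sheep was left out. Of the pathway genes, 91 pairs with a sheep region were called (all genes: 7.62% of pairs), and 152 with no minimum fold. Calls over all genes rose as well without that minimum, in the cerebellum from 6090 to 12831 of 21147 genes. Some signs turned, and the cause was not tested. NGFR in ovary (-0.01) was 0.068 with upper quartile factors, 0.31 with plain totals, 0.033 with no filter, 0.076 with voom and 0.021 without brain library 1. In the species by tissue term, NTF3 was 2.11 with voom, GDNF -0.14 with plain totals (-0.65 to 1.02 leaving out a sheep) and NTRK2 -1.72 with DESeq2. NGFR there was 0.56 with RLE factors, 0.38 with upper quartile factors, 0.72 with DESeq2, 0.39 with voom, 0.21 without rat sperm libraries 3, 7 and 14, and -7.05 to 0.29 leaving out a sheep. GFRA1 was 0.74, 0.80, 1.26 and 5.29 in the same order of settings, 4.25 with the replicate block, 4.28 without those 3 libraries, and -0.37 to 0.15 leaving out a sheep. Same-numbered rat brain and sperm or ovary libraries correlated above 0.1 in 5 of 15 and 2 of 14 pairs, and none correlated best with its own number, so the number is not taken as a pairing; the block left 7 members called in rat sperm and 6 in ovary. At the sheep sperm totals, levels below 0.0146 CPM over the group were not detectable. The omission of ribosomal entries was not run for the species term.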
